A study of Mus musculus with 6 samples.

Results

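Transcription factors that set and hold the cell lineages of the lung were followed in whole lungs of mice that breathed either normal air or air with added hydrogen. The set holds 10 genes, Nkx2-1, Foxa1, Foxa2, Gata6, Tbx4, Foxf1, Sox17, Sox18, Cebpa and Elf3. They were taken as every probe set whose platform annotation names exactly 1 gene symbol and that symbol is among the 10, which gave 14 of the 45037 probe sets tested and 10 of the 17097 genes that they measure. Gata6, Tbx4, Foxf1 and Sox17 have 2 probe sets each and the other 6 genes have 1. The study compared 3 control mice, reared in normal air, with 3 mice reared for 3 weeks in a mix of 2% molecular hydrogen and 98% air. All 6 were male BALB/c mice aged 10 weeks, with no genetic change or other agent named, and each mouse gave 1 whole-lung RNA sample and 1 array. The design asks which lung transcripts differ after the hydrogen exposure.

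The lung lining grows from the foregut endoderm, where the homeodomain factor NKX2-1 marks the future lung and later drives surfactant and club cell genes. The forkhead factors FOXA1 and FOXA2 open chromatin at the same genes and can partly stand in for each other, while GATA6, C/EBP alpha and the epithelial ETS factor ELF3 act in the maturing epithelium. TBX4 and FOXF1 mark the lung mesenchyme and its capillary bed, and SOX17 and SOX18 are SoxF factors of the endothelium. Several of these genes are also active elsewhere, such as Gata6 in heart and mesothelium and Cebpa in fat, liver and macrophages.

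RefSeq upstream windows (GRCm38.p6) of 6 members were used here. Those of Foxa1, Tbx4 and Nkx2-1 are shown, because these genes carried differences past the threshold. Each line gives the 250 bases up to the annotated start, 5′ to 3′ on the strand of the gene, with matches to 9 short motifs in capitals. The Foxa1 window is chr12:57546112-57546361 (minus strand), the Tbx4 window is chr11:85896515-85896764 (plus strand) and the Nkx2-1 window is chr12:56536909-56537158 (minus strand).
Foxa1: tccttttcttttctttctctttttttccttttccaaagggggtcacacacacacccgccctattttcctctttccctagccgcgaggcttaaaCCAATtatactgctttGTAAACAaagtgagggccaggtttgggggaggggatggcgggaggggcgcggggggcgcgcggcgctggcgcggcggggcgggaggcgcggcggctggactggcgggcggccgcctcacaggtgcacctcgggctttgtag
Tbx4: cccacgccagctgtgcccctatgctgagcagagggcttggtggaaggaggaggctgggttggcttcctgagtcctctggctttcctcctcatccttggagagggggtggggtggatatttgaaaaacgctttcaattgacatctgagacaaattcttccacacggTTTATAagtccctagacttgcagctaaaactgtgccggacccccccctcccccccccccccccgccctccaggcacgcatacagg
Nkx2-1: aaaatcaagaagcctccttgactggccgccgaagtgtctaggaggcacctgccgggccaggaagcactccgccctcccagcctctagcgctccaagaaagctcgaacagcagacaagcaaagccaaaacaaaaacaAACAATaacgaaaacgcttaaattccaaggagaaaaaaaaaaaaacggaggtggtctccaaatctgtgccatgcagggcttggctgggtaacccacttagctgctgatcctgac
The motifs were searched on both strands as TGTTTAC for forkhead factors, AGATAA for GATA factors, CCGGAAG for ETS factors, GGTGTGA for T-box factors, AACAAT for SOX factors, CTCAAG for NKX2-1, TTGCNNAA for C/EBP factors, TATAAA for the TATA box and CCAAT for the CCAAT box. Foxa1 holds a forkhead match on the reverse strand, 141 to 135 bases before its start, and a CCAAT box at 157 to 153 bases. Forkhead letters occur in 3.17% of the 32851 windows of this length and CCAAT in 33.8%. Nkx2-1 holds a SOX match at 114 to 109 bases, a word found in 9.42% of windows. Tbx4 holds a TATA word on the reverse strand at 85 to 80 bases, a word found in 12.4% of windows. No match of 1 window was repeated in another of the 3, and no matches overlapped. The window of Foxa1 has 21 CpG pairs, that of Nkx2-1 has 9 and that of Tbx4 has 6, where the median window has 6. A match only describes these letters and does not show that a factor binds there.

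Values are log2 values from robust multi-array averaging (RMA), so a difference of 1 is a doubling and 0.29 a fold of 1.22. Groups were compared with limma, a linear model that shares information on the spread among probe sets, and "rose" or "fell" below means an adjusted p under 0.05 after Benjamini-Hochberg adjustment over all 45037 probe sets. With 3 mice a group, the smallest two-sided p of an exact permutation test is 0.1. The number of arrays limits the precision throughout, and the array medians lay at 4.75 to 4.85. In whole lung, fewer cells of a type and less RNA per cell cannot be told apart. The arrays carried the lung label by their markers: the alveolar type 2 gene Sftpc was at 13.14 to 13.16 in controls and 13.16 to 13.19 in hydrogen mice, and the 8 measured type 2 markers of 10 had a mean log2 value of 10.49 to 10.60 in controls and 10.62 to 10.66 in hydrogen mice. The hydrogen arrays had a narrower spread of values (SD over probe sets 1.80 to 1.81, against 1.90 to 1.92), and the direction of change followed brightness, with a median log2 change of 0.15 in the fourth decile of mean value and -0.23 in the ninth. The labels name no batch, and a batch that ran with the groups was not tested.

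The lineage factors differed little between hydrogen and control mice. Of the 14 probe sets, 2 rose (Nkx2-1 and 1 of Gata6) and 3 fell (Foxa1 and both of Tbx4), while 9 did not pass. That is 35.7% called, where 47.1% of all probe sets were called, 24.3% higher and 22.8% lower. These shares of all probe sets are not matched for brightness, and all members but Nkx2-1 are brighter than the median probe set. With the dim probe sets, those below that median, left out, 16.3% of 22517 probe sets rose and 37.3% fell. Of the 13 member probe sets among them, 1 rose and 3 fell. The split of the members was 0 higher and 5 lower after centring on array medians, 4 and 1 when quantile normalised anew, and 3 and 1 with cyclic loess. The groups did not overlap for 7 of the 14, or 50%, against 57.3% of all probe sets. Of these, 2 were higher in hydrogen mice, against 30.9% of all probe sets, and 5 lower, against 26.4%. All member changes lay between -0.37 and 0.29 on the log2 scale. Their median absolute change was 0.21, near the 0.18 of all probe sets. Counted as 1 probe set per gene, 2 genes rose and 2 fell of 10, against 25.5% and 25.9% of all genes. Every one of the 5 calls kept its direction under each alternative tried, but none kept its call under all of them.

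**Figure D1:**
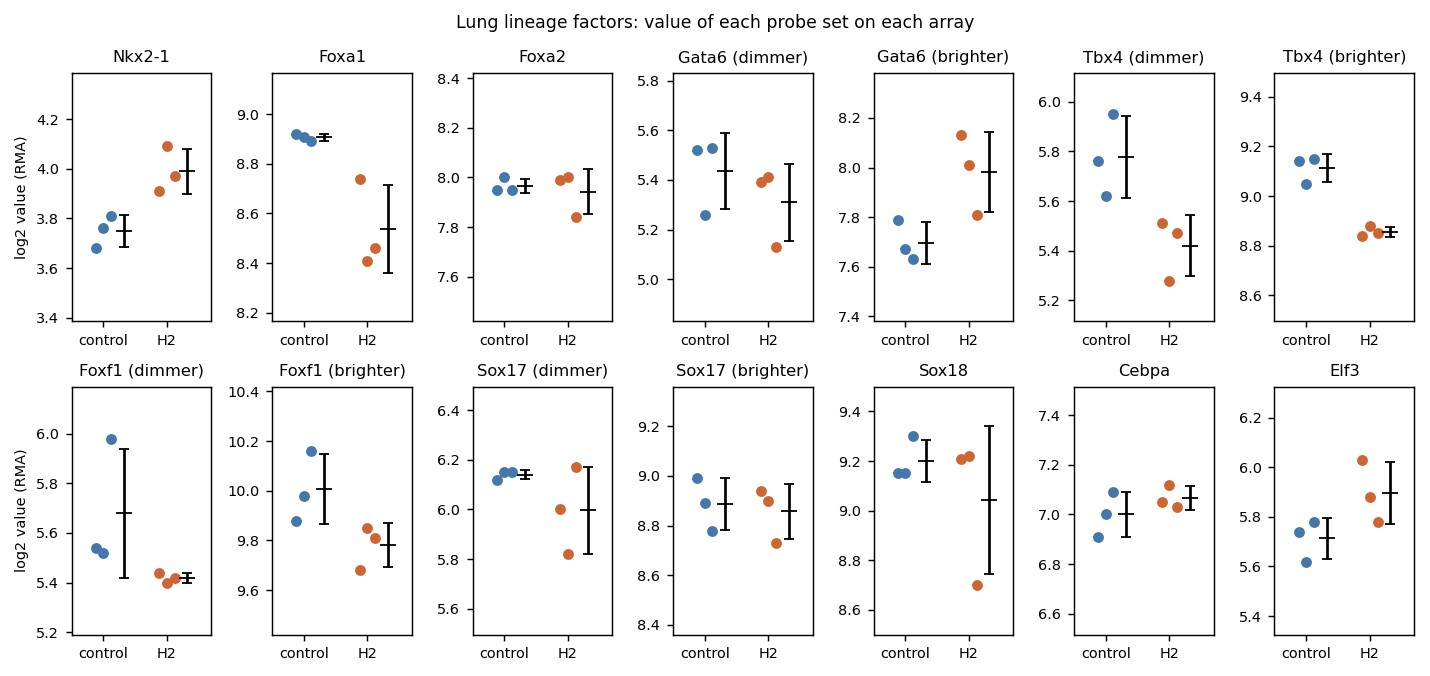
Log2 values (RMA, vertical axes, each spanning 1 log2 unit) of the 14 probe sets on the 3 control and 3 hydrogen (H2) arrays, with bars for the mean ± SD of each group. The groups stand clear of each other for Nkx2-1, Foxa1, the brighter probe set of Gata6 and both probe sets of Tbx4 and Foxf1, and overlap for the other 7.

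Nkx2-1, the factor that marks lung endoderm, had values of 3.68, 3.76 and 3.81 in controls and 3.91, 4.09 and 3.97 in hydrogen mice. The groups did not overlap, and all 3 hydrogen values were higher. The change was 0.24 (SE 0.07, limma adjusted p = 0.0183), a fold of 1.18. Its probe set is the only member below the median probe set of 4.80, in the third decile, where the median change was 0.14. Low signal limits this value. Its call was lost after centring on array medians (0.15, adjusted p = 0.0958), when quantile normalised anew (0.12, adjusted p = 0.17), with cyclic loess (0.13, adjusted p = 0.154) and without control replicate 1 (adjusted p = 0.0593) or hydrogen replicate 2 (adjusted p = 0.0683).

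Foxa1, a pioneer forkhead factor of the epithelium, had values of 8.92, 8.91 and 8.89 in controls and 8.74, 8.41 and 8.46 in hydrogen mice. The controls lay within a few hundredths of each other, and every hydrogen mouse was lower, replicate 1 the least. Foxa1 fell by 0.37 (SE 0.09, limma adjusted p = 0.00899), a fold of 1.29, the largest fall among the members. The median of its decile was -0.13, and 15.1% of the probe sets in that decile had a lower value. The change was -0.19 when quantile normalised anew (adjusted p = 0.103) and -0.20 with cyclic loess (adjusted p = 0.104), where it no longer passed. It kept its call without any 1 array, with changes from -0.47 to -0.31.

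Foxa2, its close relative, had values of 7.95, 8.0 and 7.95 in controls and 7.99, 8.0 and 7.84 in hydrogen mice. The groups overlapped, and only hydrogen replicate 3 was below all controls. The change of -0.02 had a 95% interval of -0.16 to 0.12 (adjusted p = 0.779). With the arrays quantile normalised again it was 0.20 (adjusted p = 0.0403) and with cyclic loess 0.17 (adjusted p = 0.0664), so its direction depended on the scaling. The change of Foxa1 relative to Foxa2 within each array kept its sign. Foxa1 minus Foxa2 was 0.97, 0.91 and 0.94 in controls and 0.75, 0.41 and 0.62 in hydrogen mice. The groups did not overlap, with a difference of the changes of -0.35, and of -0.37 and -0.39 after cyclic loess and quantile normalisation. Its exact permutation p of 0.1 is the smallest that 3 against 3 allow, and it was 0.3 when adjusted over the 6 such pairs, which were chosen with values known.

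Gata6, a zinc finger factor of endoderm, heart and mesothelium, was measured by a pair of probe sets that differed. The brighter had 7.79, 7.67 and 7.63 in controls and 8.13, 8.01 and 7.81 in hydrogen mice. All hydrogen values were above all controls, with hydrogen replicate 3 the closest to the controls, and the change was 0.29 (SE 0.09, limma adjusted p = 0.0266). The dimmer had 5.52, 5.26 and 5.53 in controls and 5.39, 5.41 and 5.13 in hydrogen mice, which overlapped (-0.13, adjusted p = 0.323). The annotation gives the same source transcript for both. The brighter minus the dimmer value was 2.27, 2.41 and 2.10 in controls and 2.74, 2.60 and 2.68 in hydrogen mice, without overlap (difference 0.41, exact permutation p = 0.1, adjusted over 6 pairs 0.3). The change of the brighter probe set lay high in its brightness decile, where the median was -0.23 and 95.6% of probe sets had a lower change. It was 0.51 after quantile normalisation and 0.49 after cyclic loess, and 0.20 after centring, where it did not pass (adjusted p = 0.0902). The mean over both probe sets had 0.08 (adjusted p = 0.449). The call was lost with control replicate 2 (adjusted p = 0.076), control replicate 3 (0.0741), hydrogen replicate 1 (0.0848) or hydrogen replicate 2 (0.0768) left out, with changes of 0.21 to 0.37 over all arrays left out in turn. Of 9 measured cardiac muscle markers of 10 listed, all 9 fell (mean log2 value 9.34 to 9.67 in controls and 6.20 to 8.22 in hydrogen mice), while of 6 mesothelial markers 1 rose and 1 fell (6.09 to 6.70 and 6.66 to 6.67). The mesothelial markers had a median change of 0.24, from -0.60 to 0.69. The 1 that fell was Krt19 (-0.60), which is also counted among the epithelial markers. The part of the cardiac muscle and mesothelial markers in the Gata6 values was not tested.

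Tbx4, a T-box factor of the lung mesenchyme, fell on each of its probe sets. The brighter had 9.14, 9.05 and 9.15 in controls and 8.84, 8.88 and 8.85 in hydrogen mice. The dimmer had 5.76, 5.62 and 5.95 in controls and 5.51, 5.28 and 5.47 in hydrogen mice. The groups were apart on both, and every hydrogen mouse was lower. The changes were -0.26 (SE 0.05, limma adjusted p = 0.00601) and -0.36 (SE 0.10, limma adjusted p = 0.016), and the pair differed by 0.10 between groups, within the spread (exact permutation p = 0.6, adjusted over 6 pairs 0.72). The medians of their brightness deciles were -0.13 for the brighter and -0.05 for the dimmer. In those deciles, 28.9% and 21.2% of probe sets had a lower change. The brighter shrank to -0.08 after quantile normalisation (adjusted p = 0.261) and -0.09 after cyclic loess (adjusted p = 0.207). The dimmer kept its call under all scalings, with -0.45 after centring, -0.32 after quantile normalisation and -0.34 after cyclic loess, and was the only one of the 5 called probe sets to do so. It lost the call without hydrogen replicate 2 (-0.29, adjusted p = 0.0577).

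Foxf1, the forkhead factor of lung mesenchyme and capillaries, was lower in the hydrogen mice on each probe set without passing the test. The brighter probe set had 9.88, 9.98 and 10.16 in controls and 9.68, 9.85 and 9.81 in hydrogen mice. The dimmer had 5.54, 5.52 and 5.98 in controls and 5.44, 5.40 and 5.42 in hydrogen mice. Neither overlapped, although control replicate 3 stood highest on each. The changes were -0.23 (SE 0.08, limma adjusted p = 0.051, 95% interval -0.42 to -0.04) and -0.26 (SE 0.11, adjusted p = 0.0926), so the brighter missed the threshold narrowly. It passed after centring (-0.32, adjusted p = 0.014), with a replicate block (adjusted p = 0.0349), with array weights (0.049), with a trend and robust fitting (0.0208), among 1 probe set per gene (0.0467), without shared probe sets (0.0499) and without control replicate 1 (0.03). Without control replicate 3 it was -0.15 (adjusted p = 0.14), and after quantile normalisation -0.135 and cyclic loess -0.10. The dimmer had -0.11 without control replicate 3 (adjusted p = 0.158) and passed only after centring (adjusted p = 0.0333).

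Sox17 and Sox18, the SoxF factors of endothelium, did not pass. The brighter Sox17 probe set had 8.99, 8.89 and 8.78 in controls and 8.94, 8.90 and 8.73 in hydrogen mice, a change of -0.03 with a 95% interval of -0.21 to 0.15 (adjusted p = 0.775). The dimmer had 6.12, 6.15 and 6.15 in controls and 6.00, 5.82 and 6.17 in hydrogen mice, a change of -0.14 (adjusted p = 0.197). The hydrogen mice were more spread than controls on the dimmer probe set, and the call appeared without hydrogen replicate 3 (-0.23, adjusted p = 0.0375). Both identifiers carry a letter that marks probes possibly shared with other transcripts. Sox18 had 9.15, 9.15 and 9.30 in controls and 9.21, 9.22 and 8.70 in hydrogen mice. Its change of -0.16 (adjusted p = 0.357) rested on hydrogen replicate 3, without which it was 0.02 (adjusted p = 0.883). The brighter Sox17 probe set was 0.14 after quantile normalisation or cyclic loess, and Sox18 was 0.01 after quantile normalisation, so neither direction was stable to scaling. Of 10 endothelial markers, 3 fell and none rose (mean log2 value 9.17 to 9.27 in controls and 9.06 to 9.26 in hydrogen mice), among them Eng (-0.23), and none of the 10 passed after quantile normalisation or cyclic loess.

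Cebpa, a leucine zipper factor of alveolar type 2 cells, fat, liver and myeloid cells, had 6.91, 7.0 and 7.09 in controls and 7.05, 7.12 and 7.03 in hydrogen mice. The groups overlapped, with a change of 0.07 (95% interval -0.08 to 0.21, adjusted p = 0.415). It lay above the median of its decile, -0.23, and was past the threshold after quantile normalisation (0.29, adjusted p = 0.0126) and cyclic loess (0.26, adjusted p = 0.0189), but -0.02 after centring. Its relatives Cebpb (-0.39), Cebpd (-1.23) and Cebpg (-0.35) all fell as deposited, and Cebpg did not pass after quantile normalisation (-0.15, adjusted p = 0.0972) or cyclic loess (-0.17, adjusted p = 0.063). Of 4 liver markers, 3 rose (Alb 1.15, Ttr 0.80 and Apoa1 0.49; mean log2 value 4.10 to 4.21 in controls and 4.63 to 4.91 in hydrogen mice). Of the 4 measured fat cell markers of 7, 1 rose and 2 fell (5.73 to 5.89 and 4.65 to 5.81), and of the 7 measured alveolar macrophage markers of 8, 2 fell (7.08 to 7.39 and 7.02 to 7.19). The fat cell marker that rose, Lep, had a low signal (mean 3.70 in controls and 3.87 in hydrogen mice), as had Apoa1 (4.15 and 4.64). The part of liver, fat and macrophage cells in the Cebpa values was not tested.

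Elf3, an ETS factor of epithelium, had 5.74, 5.62 and 5.78 in controls and 6.03, 5.88 and 5.78 in hydrogen mice. The groups touched at 5.78, and the change of 0.18 (95% interval 0.01 to 0.36) did not pass (adjusted p = 0.082). It passed after quantile normalisation (0.26, adjusted p = 0.0346) and cyclic loess (0.24, adjusted p = 0.0436), and without hydrogen replicate 3 (0.24, adjusted p = 0.0416). Of 10 epithelial markers, 4 fell and none rose (mean log2 value 8.14 to 8.16 in controls and 7.97 to 7.98 in hydrogen mice), with Krt19 (-0.60) and Epcam (-0.37) lowest. That is 40% lower, against 25.9% of all genes and 37.3% of the probe sets brighter than the median. The median change of the 10 was -0.16, where the deciles of mean value that they lie in had a median of -0.13. After quantile normalisation or cyclic loess 2 of the 10 rose and 2 fell. Foxa1 fell and Elf3 did not, in the same arrays, and the part of the epithelial markers in either was not tested.

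**Figure D2:**
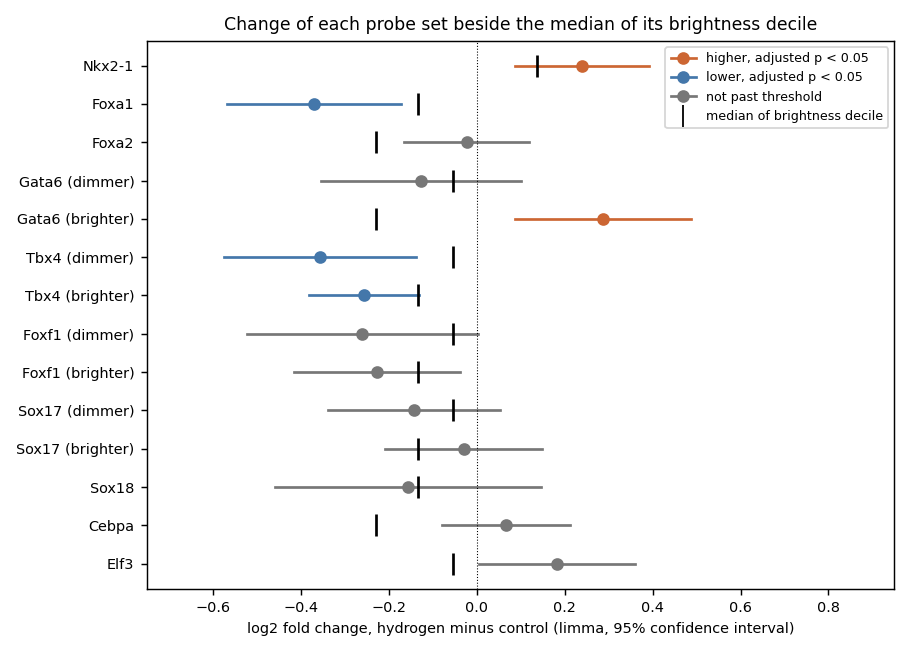
Log2 fold change, hydrogen minus control, of each member probe set (points, limma, with 95% confidence intervals as bars), and the median change of all probe sets in the same decile of mean value (black ticks). The brighter probe set of Gata6 (0.29) lies farthest above its decile median (-0.23), and the dimmer of Tbx4 (-0.36) farthest below its own (-0.05).

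**Figure D3:**
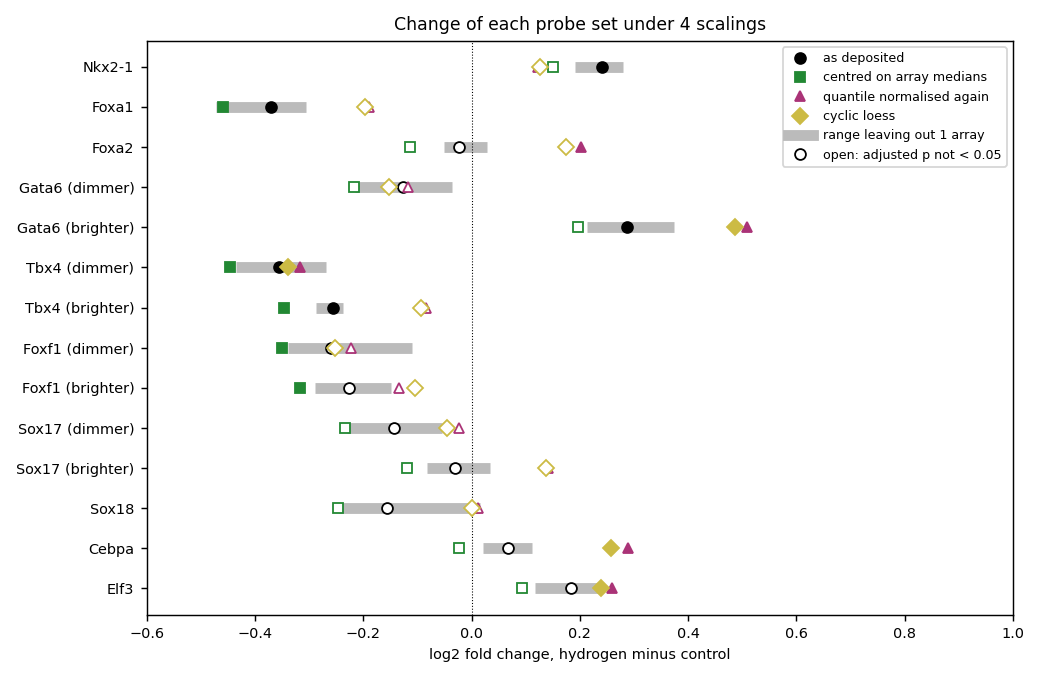
Log2 fold change of each member probe set as deposited, after centring on array medians, when quantile normalised anew and with cyclic loess, with filled symbols for adjusted p under 0.05 and grey bars for the range when 1 array is left out. Quantile normalisation and cyclic loess move Foxa2 from -0.02 to 0.20 and 0.17, and the dimmer probe set of Tbx4 is the one called under all of them.

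Other factors of the same lineages were described as 3 lists. These lists and the members were chosen with earlier results known. Their counts stand beside all 17097 genes, of which 25.5% rose and 25.9% fell as deposited, 22.8% and 14.5% after quantile normalisation, 20.5% and 16.1% after cyclic loess and 15.7% and 35.8% after centring. Of 35 measured factors of the lung epithelium, 20 fell (57.1%) and 7 rose (20%). The median change of the list was -0.24, where all genes had 0.01 and the deciles of mean value that its members lie in had a median of -0.13. Cebpd (-1.23, SE 0.20, limma adjusted p = 0.00175), which answers glucocorticoids and inflammation, Ehf (-0.84), a relative of Elf3, and Sox2 (-0.75), the factor of the conducting airway, fell most. Foxp4 (0.69), a forkhead partner of the early lung, Elf4 (0.58) and Mycn (0.51), a factor of growing tip cells, rose most. After quantile normalisation 10 fell (28.6%) and 6 rose, with a median of -0.095, and after cyclic loess 12 (34.3%) and 6, with a median of -0.10. After centring 22 fell (62.9%) and 6 rose, with a median of -0.33. Cebpd, Ehf, Sox2, Foxp4, Elf4 and Mycn all kept their calls under the 3 scalings and without any 1 array. Of 9 markers of the club cell, a secretory cell of the airway, 7 fell and none rose, with a median of -1.21 (mean log2 value 10.71 to 10.94 in controls and 8.31 to 10.14 in hydrogen mice). Hydrogen replicate 2 was lowest by this mean, with Bpifa1 at 4.01 and Scgb3a1 at 6.44, where controls had at least 11.82 and 11.45. After quantile normalisation or cyclic loess 6 of the 9 fell. The falls were uneven across the 9. Scgb1a1 (0.01) and Cyp2f2 (-0.13) did not pass, and Scgb3a2 (-0.26) and Aldh1a1 (-0.41) fell less than the rest. Those were Muc5b (-1.21), Bpifb1 (-2.27), Scgb3a1 (-2.55), Reg3g (-2.64) and Bpifa1 (-4.44). The ciliated cell factor Foxj1 fell by 0.58, and of 6 other ciliated markers 4 fell and none rose (mean log2 value 6.62 to 7.05 in controls and 6.28 to 6.39 in hydrogen mice). The part of the club and ciliated cell markers in the values of these factors was not tested.

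Of 21 mesenchymal factors, 9 fell (42.9%) and 1 rose (4.76%), against 25.9% and 25.5% of all genes. The median change of the list was -0.15, where the deciles of mean value that its members lie in had a median of -0.13. The counts were 6 lower and 2 higher after quantile normalisation, 6 and 1 after cyclic loess and 13 and 0 after centring. Osr1 (-0.92), Prrx1 (-0.83) and Tcf21 (-0.74), factors of embryonic and adult fibroblasts, fell most, and they kept their calls under centring, quantile normalisation and cyclic loess. Gli1 (0.32), a target of hedgehog signalling, was the one that rose, and lost its call after centring, after cyclic loess and without hydrogen replicate 1 (adjusted p = 0.0564, 0.0618 and 0.0541). Of the T-box relatives of Tbx4, Tbx3 fell (-0.18, adjusted p = 0.0432, and -0.05 after quantile normalisation with adjusted p = 0.575), a call kept only without control replicate 1 among the arrays left out, while Tbx2 (-0.15) and Tbx5 (-0.14) did not pass, and Foxf2, the relative of Foxf1, had 0.16 (adjusted p = 0.0836). Of 9 fibroblast markers other than Tcf21, 3 fell and 1 rose (mean log2 value 7.83 to 7.90 in controls and 7.61 to 7.78 in hydrogen mice). Of 5 smooth muscle markers, 4 fell as deposited (7.68 to 7.75 and 6.93 to 7.37), 1 after quantile normalisation, 2 after cyclic loess and 5 after centring. Their part in the falls of Tbx4 was not tested.

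Of 26 endothelial factors, 9 fell (34.6%) and 3 rose (11.5%), with a median of -0.06, where their deciles of mean value had a median of -0.13. Gata3 (-0.45), Hey1 (-0.41), an arterial Notch target, and Mef2c (-0.41) fell most, and Bcl6b (0.66), Ets1 (0.35) and Foxo1 (0.30) rose. Foxo1 had a low signal (mean 4.09 in controls and 4.39 in hydrogen mice), which limits its value. Hey1 and Mef2c did not pass after quantile normalisation (adjusted p = 0.085 and 0.125) or cyclic loess (0.0705 and 0.0821), nor did Foxo1 after cyclic loess (0.0573), nor Ets1 without hydrogen replicate 1 or 2 (0.0507 and 0.0523). After quantile normalisation the split was 6 higher (23.1%) and 3 lower (11.5%), and after cyclic loess 5 (19.2%) and 4 (15.4%), near the shares of all genes under the same scalings. After centring it was 3 higher (11.5%) and 12 lower (46.2%), against 15.7% and 35.8% of all genes. Sox7, the third SoxF gene, had -0.01 (adjusted p = 0.893).

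**Figure D4:**
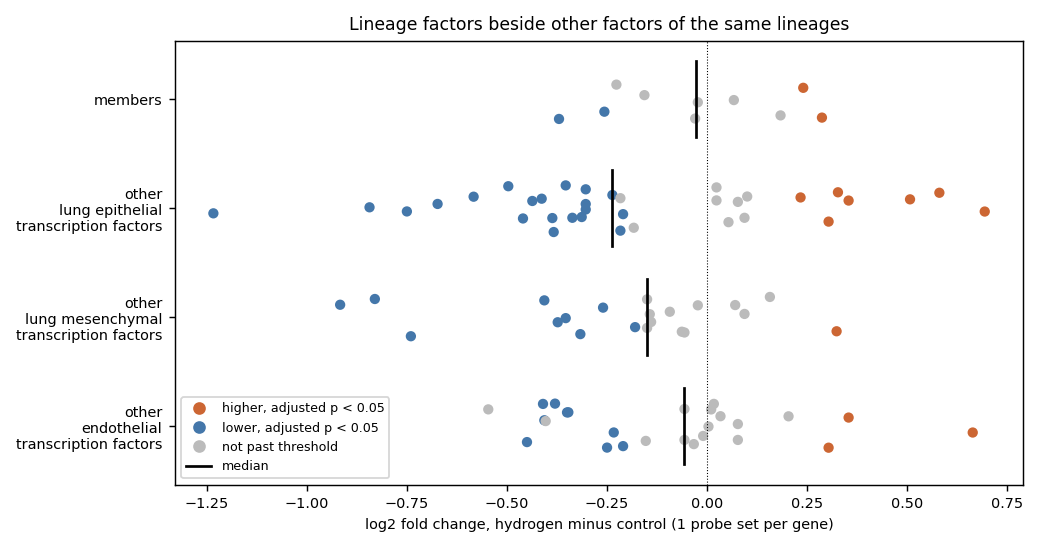
Log2 fold change, hydrogen minus control, of the 10 lineage factors and of 3 lists of other factors of the same lineages (1 point per gene, jittered vertically; black lines are medians). The members lie between -0.37 and 0.29 around a median of -0.03, while the epithelial factors reach from -1.23 to 0.69 around -0.24.

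Of 28 measured ligands, receptors and partners of these factors, 5 rose (17.9%) and 8 fell (28.6%). The WNT ligand genes Wnt7b (0.65, SE 0.06, limma adjusted p = 0.000311), made by the epithelium, Wnt2b (0.50) and Wnt2 (0.26), which act in lung specification, rose. Wnt2 lost its call after centring (adjusted p = 0.147) and with control replicate 1 (0.063), control replicate 2 (0.136), hydrogen replicate 1 (0.0716) or hydrogen replicate 2 (0.147) left out. Of the coactivators that NKX2-1 and nuclear receptors use, Ncoa1 (-0.60), Ncoa3 (-0.50) and Crebbp (-0.48) fell. Yap1 (-0.45), a Hippo pathway effector, fell, while its relative Wwtr1, a partner of NKX2-1, had -0.08 (adjusted p = 0.324), and Zfpm2 (-0.44), a partner of GATA factors, fell too. Shh (0.11), Fgf10 (0.13), Fgfr2 (0.02) and Bmp4 (-0.15), signals of branching, did not pass. Low signal limits the values of Shh (mean 3.39 in controls and 3.49 in hydrogen mice) and of Wnt2b (3.96 and 4.46). In the decile of mean value that holds Wnt2b, 41.9% of all probe sets rose. After quantile normalisation 7 rose and 5 fell, after cyclic loess 5 and 5, and after centring 2 and 11.

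Of 23 measured genes reported as targets of the 10 factors, 6 rose (26.1%), 7 fell (30.4%) and 10 did not pass, with a median of -0.03. These shares lie near those of all genes. After centring 4 rose and 7 fell. The surfactant genes Sftpc (0.02), Sftpa1 (-0.03) and Sftpd (-0.04), and the club cell gene Scgb1a1 (0.01), all targets of NKX2-1, did not pass and lie near the top of the scale, where an array can saturate. Scgb1a1 was one of the 2 club cell markers of 9 that did not pass, while Bpifa1 (-4.44), Reg3g (-2.64), Scgb3a1 (-2.55) and Bpifb1 (-2.27) fell. Without hydrogen replicate 2 the change of Bpifa1 was -2.69 and that of Scgb3a1 -1.26. With any 1 control array left out, Bpifa1 (adjusted p = 0.0557 to 0.0657) and Scgb3a1 (0.0843 to 0.109) lost their calls, and Scgb3a1 did so after quantile normalisation (0.0582) and cyclic loess (0.0633) too. The lamellar body transporter gene Abca3 (0.18) and the phospholipid enzyme gene Lpcat1 (0.28) rose. Abca3 lost its call after centring (adjusted p = 0.226) and with any of 4 arrays left out, those of control replicates 1 and 3 (0.0839 and 0.0683) and of hydrogen replicates 1 and 2 (0.0785 and 0.11). The mucus genes Muc5b (-1.21) and Agr2 (-0.55), reported FOXA targets, fell. Scgb3a2 (-0.26) fell too, but not without control replicate 1 (adjusted p = 0.0717) or 2 (0.0597) or hydrogen replicate 2 (0.0785). Ptgs2 (-1.36) had the largest fall of the list and Hif3a (1.13) the largest rise. The endothelial junction gene Cldn5, a SOX18 target, had -0.01 (adjusted p = 0.955), and Vcam1 rose by 0.42.

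Genes next to the members on their chromosomes, taken by their RefSeq order and not by their values, were compared with the members. Of the 20 nearest measured neighbours, 1 on each side, 3 rose, 5 fell and 12 did not pass, against 51.4% called among all genes. Nkx2-9 (0.72, adjusted p = 0.000305), a homeobox gene that lies directly beside Nkx2-1, rose, while Mbip (-0.42) on its other side fell, a call lost after quantile normalisation (adjusted p = 0.212) and cyclic loess (0.155). Neither neighbour of Foxa1, Mipol1 (0.00) and Ttc6 (0.14), passed, nor did those of Tbx4, Tbx2 (-0.15) and Brip1 (0.06). Low signal limits the values of Mipol1 (mean 3.12 in both groups) and Brip1 (3.43 in controls and 3.49 in hydrogen mice). Mib1 (-0.56), beside Gata6, fell.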

How the data were processed

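Lung RNA of 6 mice, 3 per group, was measured on MG-430 PM Array Strips (Affymetrix GeneAtlas), 1 array per mouse. The deposited table holds log2 values per probe set; the authors used RMA and Affymetrix Expression Console, per the submitters' processing notes, with versions not given in the sources used here. Of 45141 probe sets, 104 control probe sets were left out and 45037 were tested with limma 3.58.1 in R 4.3.3 (lmFit, eBayes) without filtering. By the platform annotation 28898 probe sets have 1 gene symbol, 551 have more than 1 and 15588 have none. In list counts, the probe set with the highest mean stood for its gene. All 14 member probe sets matched RefSeq symbols by Entrez identifier. The labels name no pairing of the mice by replicate number. Deviations of same-numbered arrays correlated at 0.08, 0.03 and -0.11, within the -0.14 to 0.11 of differently numbered arrays. With 3 arrays a group these correlations cannot decide whether mice were paired. The named genes were all members, and of each list the 3 largest changes each way past the threshold without overlap, with relatives, signals and targets set beside a member. Members and lists were chosen with earlier results of these data known. Alternatives were a replicate block, 3 scalings, array weights, a trend and robust prior, other choices of probe sets and leaving out each array. The model was tested on simulated data with the spread of these 6 arrays and 200 changed among 45037 probe sets. There, 65 of 100 changes of 0.5 (log2) and 89 of 100 of 1 were called, with 7 false calls. The simulated noise was independent between probe sets, with no shift by brightness and few changes, while 47.1% of probe sets were called here. These rates therefore do not measure how reliable the calls here are. Figures used matplotlib 3.10.9 in Python 3.11.15. RefSeq upstream windows were used for 6 of the 10 members, and any member window on chromosome 18, which carries Gata6, was left out.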

Additional observations from a re-analysis of the deposited data

How the results depend on the processing

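Of the 14 member probe sets, 2 were higher and 3 lower as deposited. Centring on array medians gave 0 higher and 5 lower. Renewed quantile normalisation gave 4 and 1, cyclic loess 3 and 1, and leaving out dim probe sets 1 and 3. Averaging the probe sets of each gene gave 1 and 2 of 10 genes. Leaving out 1 array at a time gave 0 to 3 higher and 2 to 4 lower. A replicate block gave 2 higher and 4 lower, with Foxf1 as the added call (adjusted p = 0.0349), and changed no other member call.

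Over all probe sets, 10956 were higher and 10257 lower as deposited. Centring gave 6377 and 14571, with a median shift of all probe sets of -0.07, against 0.02 as deposited. Without dim probe sets 3663 were higher and 8396 lower of 22517, so the shares moved from 24.3% and 22.8% to 16.3% and 37.3%. One probe set per gene gave 4454 and 4516 (26.1% and 26.4%), and averaged probe sets 4803 and 4135 (28.1% and 24.2%), each of 17097. A replicate block gave 9986 and 9791.

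Of 213 member values under an alternative, 16 lost a call, 14 gained one without turning direction and 10 turned direction. The turned values were all of probe sets not called as deposited. Under the scalings they were Foxa2 after quantile normalisation (0.20) and cyclic loess (0.17) and the brighter Sox17 probe set after the same scalings (0.14 and 0.14). Sox18 turned after quantile normalisation (0.012) and Cebpa after centring (-0.023). Of these, Foxa2 after quantile normalisation also passed the threshold (limma adjusted p = 0.0403). With 1 array left out, Foxa2 ranged from -0.052 to 0.028, the brighter Sox17 probe set from -0.083 to 0.033 and Sox18 from -0.25 to 0.015, with the turn of Sox17 without control replicate 1 or hydrogen replicate 3 and the others without hydrogen replicate 3. The cause was not tested. Low signal limits the Nkx2-1 value, and 3 arrays a group limit all of them.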
